A study of Rattus norvegicus with 192 samples.

Results

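The comparison concerns the heart 3 h after a single inhalation of phosphine, a gas used as a fumigant. It holds the 8 heart arrays whose sample names give the heart, the 3 h time and either phosphine or air, of 192 arrays in the whole series. The groups were 4 hearts of rats that breathed phosphine (PH3, 660 ppm for 25 min, a product of 16500 ppm x min) and 4 hearts of rats that breathed air (Air, 0 ppm for 25 min). The exposure was of the whole body and the labels call the dose medium. The animals were male Sprague-Dawley rats of 300 to 400 g with no stated age, and all were killed under ketamine and xylazine followed by bleeding out. Each array came from a different rat, named here as in the labels: Air Rat355, Rat365, Rat370 and Rat400, and PH3 Rat359, Rat361, Rat368 and Rat399. Values below follow this order. All 31042 probe sets that are not manufacturer controls were used, and a value is the authors' log2 intensity. A difference is the PH3 mean minus the Air mean on the log2 scale. A gene is called, and is said to have risen or fallen, where limma's moderated test over 31042 probe sets gave a Benjamini-Hochberg adjusted p under 0.05. For lists of genes each of 13438 genes was read by its brightest probe set in heart.

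Phosphine is known to impair mitochondrial respiration, with cytochrome c oxidase as a described site, and the heart, which burns mostly fatty acids in its mitochondria, is a known target organ. Severe stress also releases corticosterone in the rat, which binds the glucocorticoid receptor and switches on genes such as Fkbp5, Pdk4 and the metallothioneins. Stressed cells in addition switch on immediate early genes within minutes, and amino acid shortage or mitochondrial stress switches on targets of the transcription factor ATF4. In bulk tissue a lower level in each cell and fewer cells of a type cannot be told apart.

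The arrays were heart by their markers. The 11 measured cardiomyocyte markers had a mean log2 level of 12.52 to 12.61 in the PH3 hearts and 12.56 to 12.66 in the Air hearts, and 0 heart arrays of the series were most like an array of another tissue. Correlations among the 8 arrays ran from 0.961 to 0.992. A pair of arrays stood apart by RNA quality. The 3′ index, the log2 level at the 3′ end of the Gapdh and beta-actin control transcripts minus that at their 5′ end, which grows as RNA breaks, was 0.923 in PH3 Rat368 and 0.842 in Air Rat370 and 0.201 to 0.421 in the other 6, and these 2 arrays were most like each other. Another pair was high in adipocyte markers: the brown fat gene Ucp1 read 11.98 in PH3 Rat359 and 11.30 in Air Rat355 but 3.11 to 3.56 in the other 6, and the mean level of 7 adipocyte markers was 8.80 and 8.14 in that pair against 4.95 to 5.23. The pairs stood apart in other markers too. Mean endothelial marker levels were 9.98 in PH3 Rat368 and 9.63 in Air Rat370, against 8.78 to 9.13 in the other 6. Mean lung epithelial marker levels were 5.37 in PH3 Rat359 and 5.21 in Air Rat355, against 3.98 to 4.33. The names used for the pairs thus give 1 trait of each. Each pair holds 1 PH3 and 1 Air heart, so each pair gives a PH3 minus Air value of its own, printed below where it matters.

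At 3 h 2 of 31042 probe sets passed the test, or 0.00644%, a probe set of Fkbp5 that rose and the probe set of Dach1 that fell. At an unadjusted p under 0.05 there were 1518 of 31042 probe sets, 904 with a higher and 614 with a lower mean. That is no more than the share of 0.05 that such a cut passes where nothing differs. One hour after exposure the same test had called 284 heart probe sets, 0.915%. The calls at 3 h depended on single hearts: 0 probe sets were called without PH3 Rat359, Rat361 or Rat399 or without Air Rat365 or Rat370, 1 was called without Air Rat400, and 0 without the pair high in adipocyte markers. Without the pair with high 3′ index 2 were called, Fkbp5 and an unnamed probe set. With the rat as a replicate block in a fit of every tissue 25 were called, 13 higher and 12 lower, among them both calls above. That fit pools the spread of the tissues, and the median residual SD of a probe set was 0.253 in heart, 0.500 in blood and 0.154 to 0.171 in the other 4 tissues. Its p-values, also those printed below for single genes, do not measure the spread between hearts alone. The correlation within rats was only 0.0168. The rest of the text therefore gives values for most genes, with no claim that they changed.

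Fkbp5, a co-chaperone of Hsp90 that lowers the glucocorticoid receptor's affinity for its hormone and is itself a glucocorticoid target, was higher after phosphine in every heart. Its called probe set read 6.18, 5.81, 5.85 and 6.26 in the Air hearts and 7.34, 7.62, 6.65 and 7.39 in the PH3 hearts. The lowest PH3 heart, Rat368 with the high 3′ index, lay above the highest Air heart. The mean went from 6.03 ± 0.23 to 7.25 ± 0.42 (SD, n = 4 each), a difference of 1.22 with a standard error of 0.196, 2.33 times on the intensity scale, with a limma adjusted p of 0.023. The brightest Fkbp5 probe set read 6.93, 7.04, 7.29 and 6.82 in Air and 7.70, 7.74, 7.74 and 7.93 in PH3, again with no overlap, but its difference of 0.76 missed the threshold (adjusted p 0.131). The difference of the called probe set was 0.79 within the pair with high 3′ index and 1.37 in the other 6 hearts, and 1.16 within the pair high in adipocyte markers and 1.24 in the other 6. Leaving out 1 heart at a time moved it between 1.10 and 1.42, with adjusted p from 0.0015 to 0.265. With the 8 hearts of 3 h fitted alone it stayed 1.22, with a limma adjusted p of 0.86. Against the 12 Air hearts of 1, 6 and 24 h it was 0.85 (limma adjusted p 0.0389). Against the Air hearts of all times it was 0.94 and not called (limma adjusted p 0.0696). The 3 h Air hearts thus had a lower mean than the other Air hearts, and part of the size rests on them.

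Promoters could be looked up in RefSeq (GRCr8) for 77 of the 100 genes named by the rules of the processing account. That of Fkbp5 is shown because Fkbp5 is the gene called higher, and that of the metallothionein Mt2A because its level was high beside it and metallothionein promoters are known for repeated metal response elements. Each runs from 250 bases before to 50 bases after the gene's start, on the minus strand, at chr20:6543506-6543805 for Fkbp5 and chr19:10838659-10838958 for Mt2A. In the Mt2A sequence capitals mark the core of the metal response element, TGCACNC or TGCGCNC, on either strand, and the Fkbp5 sequence, which was searched for the glucocorticoid motif named below it, has none to mark.
Fkbp5: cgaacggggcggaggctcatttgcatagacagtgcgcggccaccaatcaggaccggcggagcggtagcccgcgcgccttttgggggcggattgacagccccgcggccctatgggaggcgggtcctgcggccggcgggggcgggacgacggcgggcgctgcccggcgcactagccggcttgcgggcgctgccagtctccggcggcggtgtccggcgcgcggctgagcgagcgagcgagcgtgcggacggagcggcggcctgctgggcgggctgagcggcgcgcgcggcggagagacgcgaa
Mt2A: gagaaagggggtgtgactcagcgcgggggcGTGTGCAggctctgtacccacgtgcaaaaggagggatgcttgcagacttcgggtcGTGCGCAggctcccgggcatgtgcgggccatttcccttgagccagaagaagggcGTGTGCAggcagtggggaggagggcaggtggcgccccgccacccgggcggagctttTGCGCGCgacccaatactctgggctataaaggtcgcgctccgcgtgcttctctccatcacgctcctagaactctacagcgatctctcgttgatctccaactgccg
The Mt2A window held 4 copies with no overlap, and 562 of 33469 promoters (1.68%) held 3 or more, while 24.2% held at least 1. The glucocorticoid receptor's core motif AGAACA, which 20.7% of promoters hold on either strand, was not among the letters of the Fkbp5, Mt2A, Pdk4 or Angptl4 windows. These matches describe letters in a short window only.

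Dach1, a transcription factor that in mouse promotes the growth of coronary arteries, was the gene called lower. Its probe set read 8.0, 8.18, 8.71 and 8.12 in Air and 6.93, 6.84, 7.39 and 7.34 in PH3. The highest PH3 heart, at 7.39, lay below the lowest Air heart, at 8.0. The mean went from 8.25 ± 0.31 to 7.12 ± 0.28 (SD, n = 4 each), and Dach1 fell by 1.13 on the log2 scale with a standard error of 0.185 (limma adjusted p 0.023). The difference was -1.32 within the pair with high 3′ index and -1.07 in the other 6 hearts, and adjusted p was 0.0878 without that pair. It was -1.07 within the pair high in adipocyte markers and -1.15 in the other 6, with adjusted p 0.227 without them. Leaving out 1 heart moved it between -1.22 and -0.98, with adjusted p from 0.0231 to 0.265. With the 8 hearts of 3 h fitted alone it stayed -1.13, with a limma adjusted p of 0.86. The 3 h Air hearts were the high ones among all heart groups: the Air mean was 7.36 ± 0.28 at 1 h, 7.54 ± 0.30 at 6 h and 7.29 ± 0.26 at 24 h (SD, n = 4 each), and the PH3 mean was 6.99 at 1 h, 7.70 at 6 h and 7.78 at 24 h. Against the Air hearts of 1, 6 and 24 h the 3 h PH3 hearts differed by -0.27 (adjusted p 0.490), so the size and the call rest on the 3 h Air hearts.

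**Figure D1:**
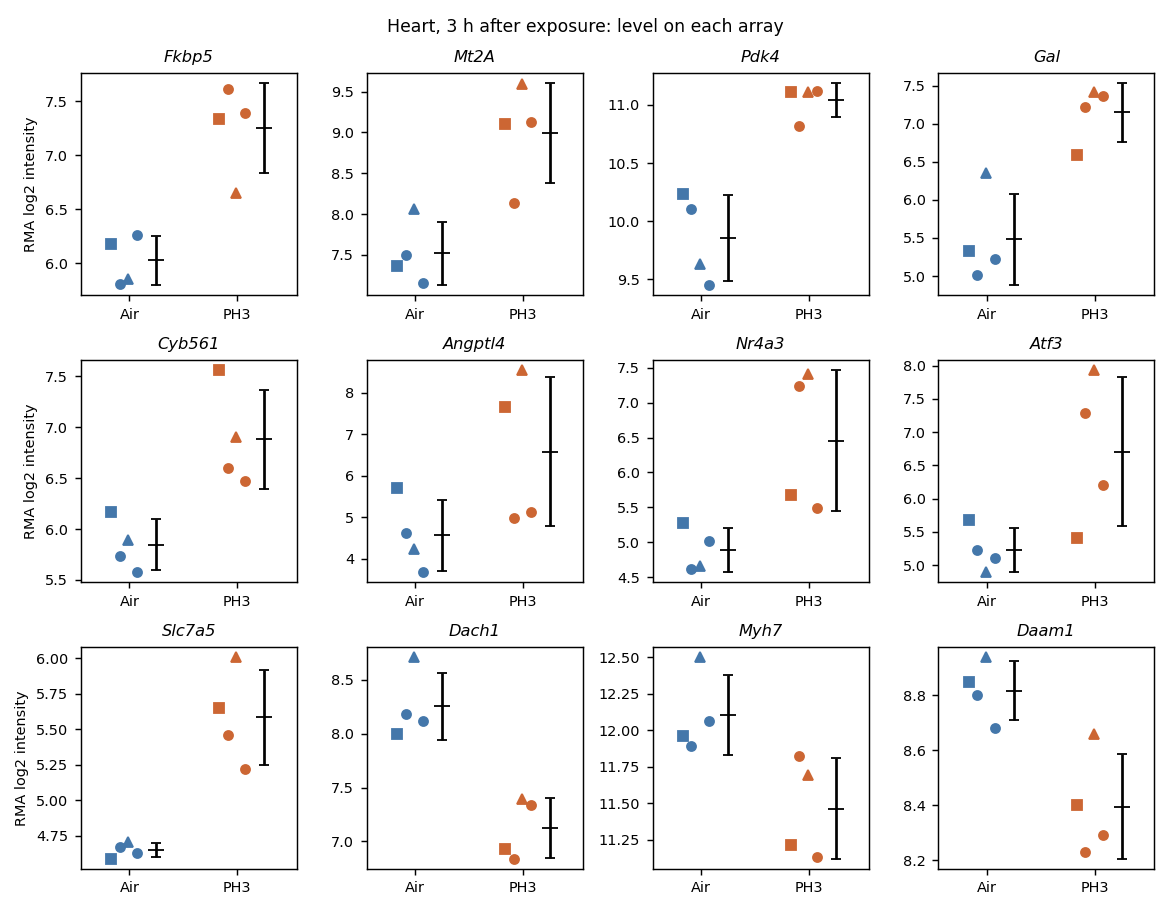
RMA log2 intensity of 12 genes on each heart array at 3 h, with Air in blue and PH3 in orange; bars give the mean and SD of 4 arrays, triangles mark PH3 Rat368 and Air Rat370 (high 3′ index) and squares PH3 Rat359 and Air Rat355 (fat markers). Fkbp5 and Dach1 are the called genes; Angptl4 and Atf3 overlap between the groups, and the axes do not start at 0.

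Glucocorticoid targets as a list, Fkbp5 among them, were mostly higher on average, and only the Fkbp5 probe set above was called. The list reads Fkbp5 by its brightest probe set, which was not called. It was chosen with earlier results of these data known, and 8 of its genes were called in heart at 1 h, so its counts are no separate support. Of 27 measured genes of 29 listed, 20 had a higher and 7 a lower mean, with a median difference of 0.21, where all 13438 genes had 55.4% higher and a median of 0.02. Among them 6 had an unadjusted p under 0.05 and a higher mean, against 2.81% of all genes, 0 had one with a lower mean, against 1.61%, and 3 (Fkbp5, Pdk4 and Mt2A) had every PH3 heart above every Air heart, against 1.83% of all genes. Mt2A, which binds zinc and copper, read 7.37, 7.50, 8.06 and 7.15 in Air and 9.11, 8.14, 9.59 and 9.13 in PH3. Rat361 was low among the PH3 hearts and just above the highest Air heart. The difference was 1.47 with a standard error of 0.441 (adjusted p 0.764). In the fit of every tissue with the rat as a replicate block, which pools their spread, adjusted p was 0.0016. Mt1, its close relative, differed by 0.24. Rasd1, a small G protein first found as a dexamethasone-induced gene, read 6.17, 5.44, 5.18 and 5.66 in Air and 7.73, 6.54, 5.77 and 6.52 in PH3. PH3 Rat368 lay within the Air range, and the difference of 1.02 was 1.56 within the pair high in adipocyte markers and 0.85 in the other 6. Glul, glutamine synthetase, differed by 0.35 and Sgk1, a kinase that acts on ion channels, by 0.39. Per1, Tsc22d3 and Klf9, which are also well known targets, differed by -0.28, -0.09 and -0.02. The receptor itself, Nr3c1, differed by -0.10, and the mineralocorticoid receptor Nr3c2 by -0.19.

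Among genes of fatty acid use Pdk4 and Angptl4 had the largest differences at 3 h. Pdk4, the kinase that switches off pyruvate dehydrogenase and so spares glucose, read 10.23, 10.10, 9.63 and 9.45 in Air and 11.11, 10.82, 11.11 and 11.12 in PH3. The groups did not overlap and 3 of the PH3 hearts lay within 0.01 of each other. The difference was 1.19 with a standard error of 0.299, or 2.28 times, and missed the threshold over the table (adjusted p 0.557). It was 0.88 within the pair high in adipocyte markers and 1.29 in the other 6 hearts. Angptl4, an inhibitor of lipoprotein lipase, read 5.71, 4.63, 4.23 and 3.69 in Air and 7.65, 4.98, 8.54 and 5.14 in PH3. Rat359 and Rat368 were high, Rat361 and Rat399 lay inside the Air range, and the difference of 2.01 carried a standard error of 0.786 (adjusted p 0.956, and 0.0357 with the rat as a replicate block). Ucp3, a mitochondrial carrier that rises with fatty acid supply, differed by 1.07, which was 1.74 within the pair high in adipocyte markers and 0.84 in the other 6 hearts. Cpt1a, which lets long-chain fatty acids into mitochondria, differed by 0.33. Of 29 measured genes of 30 listed, 20 had a higher mean, but the median was only 0.05. The enzymes of the oxidation itself lay close to 0: Cpt1b differed by 0.03, Acadm by 0.07, Hadha by -0.01 and Acadvl by 0.09. Adipocyte markers had a higher mean in 5 of 7, with a mean level of 4.95 to 8.14 in Air and 5.09 to 8.80 in PH3. Their part in these values was not tested beyond the splits given.

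Immediate early genes had a smaller median difference at 3 h than at 1 h. The heart test of 3 h minus 1 h, given below, called 0 of 31042 probe sets, and the times are different rats. Of 30 measured genes of 32 listed, 25 had a higher mean, yet the median difference was 0.17 at 3 h where it had been 1.25 at 1 h, when 13 of them were called. The mean level of the list was 7.50 in PH3 Rat368, 6.58 to 6.78 in the other PH3 hearts and 6.55 to 6.69 in the Air hearts, and without the pair with high 3′ index the median was 0.05. Nr4a3, an orphan nuclear receptor, read 5.28, 4.61, 4.66 and 5.01 in Air and 5.68, 7.24, 7.41 and 5.49 in PH3. Rat361 and Rat368 were far above the Air hearts and Rat359 and Rat399 only just. The difference was 1.56 with a standard error of 0.465 at 3 h and 3.47 at 1 h. Atf3, a transcription factor of the stress response, followed the same rats: it read 5.68, 5.23, 4.90 and 5.11 in Air and 5.41, 7.28, 7.93 and 6.21 in PH3, with Rat359 inside the Air range. Its difference was 1.48 at 3 h and 4.03 at 1 h. Nr4a1 differed by 0.81 at 3 h and 3.06 at 1 h. For Nr4a3 the difference was 2.75 within the pair with high 3′ index and 1.17 in the other 6 hearts, and for Atf3 3.03 and 0.96. Within the pair high in adipocyte markers it was 0.40 for Nr4a3 and -0.28 for Atf3, against 1.95 and 2.06 in the other 6. Fosb, Ccn1 and Gadd45b, among the genes called at 1 h, differed by 0.07, -0.09 and -0.07 at 3 h. With the rat as a replicate block Nr4a3 and Atf3 were called (adjusted p 0.0255 and 0.0258).

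ATF4 targets had a higher mean in 24 of 34 measured genes of 37 listed, with a median of 0.11, and 5 had an unadjusted p under 0.05 and a higher mean, against 2.81% of all genes. Slc7a5 and Slc3a2 had every PH3 heart above every Air heart, against 1.83% of all genes, and Aldh1l2 and Gdf15 every one below, against 0.804%. The clearest were the chains of an amino acid carrier. Slc7a5, the light chain that moves leucine and other large amino acids, read 4.59, 4.67, 4.71 and 4.63 in Air and 5.65, 5.46, 6.01 and 5.22 in PH3. Every PH3 heart was well above the narrow Air range. The difference was 0.94 with a standard error of 0.300, and adjusted p was 0.821. Slc3a2, the heavy chain, read 8.82, 8.69, 8.36 and 8.72 in Air and 9.24, 9.09, 9.04 and 8.94 in PH3. These groups also did not overlap, with a difference of 0.43. Trib3, a pseudokinase that restrains the pathway, differed by 0.59, Psph of serine synthesis by 0.49 and Chac1, which breaks down glutathione, by 0.41. Psph had a difference of 1.13 within the pair high in adipocyte markers and 0.27 in the other 6 hearts. The core targets Asns, Ddit3 and Atf4 itself differed by 0.27, 0.11 and 0.10, and Gdf15, called higher at 1 h, differed by -0.37. Endoplasmic reticulum chaperones had a higher mean in 5 of 16, with a median of -0.03.

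Genes of acute inflammation had a higher mean in 22 of 27 measured genes of 30 listed, with a median of 0.23, the highest of the 21 pathway lists. None was called, 0 had an unadjusted p under 0.05, and 1 heart carried much of it: the mean level of the list was 5.89 in PH3 Rat368, 5.04 to 5.24 in the other PH3 hearts and 4.96 to 5.14 in the Air hearts. Without the pair with high 3′ index the median was 0.11. Ptgs2, the inducible cyclooxygenase, differed by 0.83, the chemokine Ccl2 by 0.61 and Il1b by 0.45, each with a standard error above 0.4. Cebpd, a transcription factor of the acute phase, read 7.29, 7.11, 7.74 and 6.94 in Air and 6.92, 7.67, 9.17 and 7.69 in PH3. Rat368 was the high one here too. Neutrophil markers had a higher mean in 6 of 8 and macrophage markers in 8 of 9, with medians of 0.11 and 0.07. T cell markers had a higher mean in 7 of 10, with a median of 0.13 and a range from -0.41 to 0.48. Their part in the result was not tested.

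**Figure D2:**
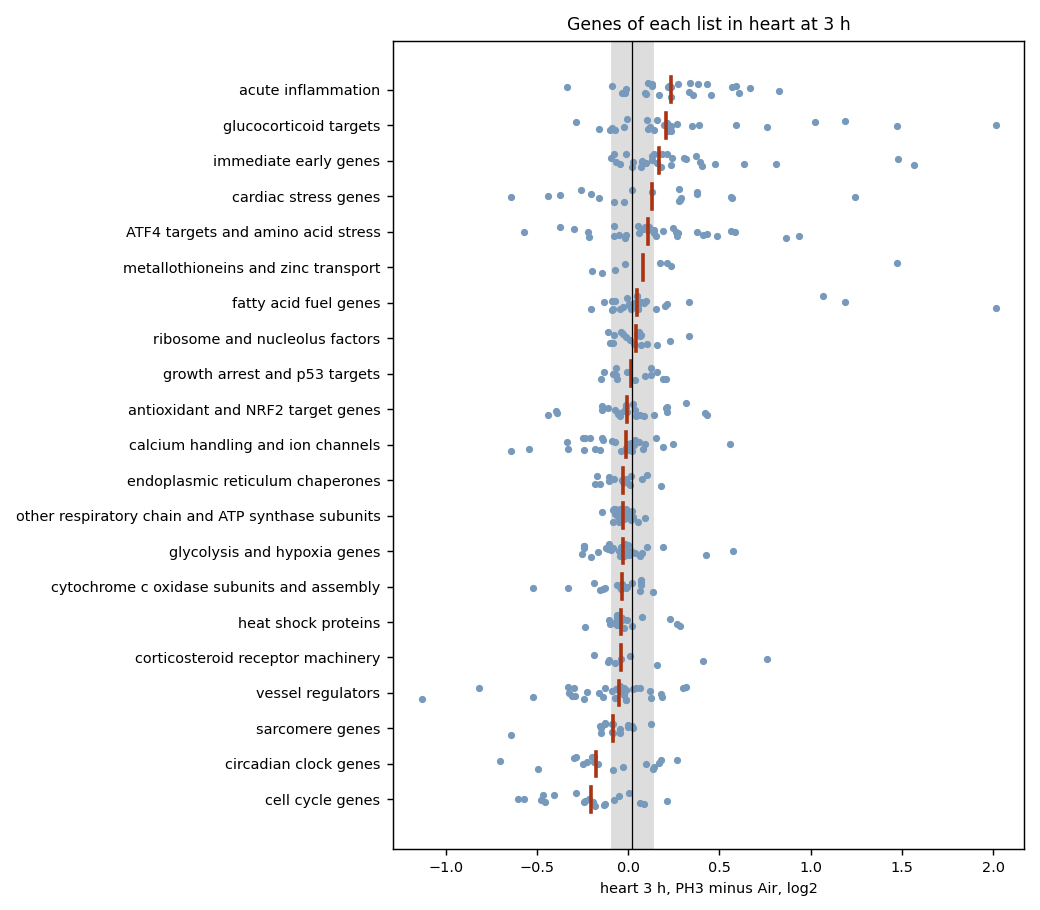
PH3 minus Air at 3 h in heart (log2, horizontal) for the measured genes of 21 pathway lists; each point is a gene and red ticks are list medians. The black line and grey band give the median (0.02) and middle quartiles (-0.09 to 0.13) of all 13438 genes, with acute inflammation (0.23), glucocorticoid targets (0.21) and immediate early genes (0.17) above the band, cell cycle (-0.20) and clock genes (-0.18) below it, and the other medians inside.

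Contractile genes differed little. Sarcomere genes had a lower mean in 14 of 17 measured genes of 19 listed, with a median of -0.09, and cardiomyocyte markers in 8 of 11, also with a median of -0.09. Myh7, the slow beta-myosin heavy chain, read 11.96, 11.89, 12.50 and 12.06 in Air and 11.21, 11.82, 11.69 and 11.13 in PH3. The groups did not overlap, with a difference of -0.64, a standard error of 0.223 and an adjusted p of 0.837. As with Dach1 the 3 h Air hearts were high, with means of 11.27, 11.23 and 11.49 in the Air hearts of 1, 6 and 24 h against 12.10 at 3 h, and against those hearts the difference turned to 0.13. Nppb, a natriuretic peptide that ventricles make under strain, differed by -0.44 and the mainly atrial Nppa by 0.29, neither called (adjusted p 1 for both). Against the Air hearts of the other times Nppa differed by -0.02. These 3 genes belong to the list of cardiac stress genes, which had a higher mean in 11 of 19 measured genes of 20 listed. Its median was 0.13, its differences ran from -0.64 to 1.24, and 0 were called. Lgals3 of that list differed by 0.56. Without the pair with high 3′ index the median of the list was -0.02. Atrial markers had a higher mean in 5 of 5, with a mean level of 10.68 to 11.78 in Air and 11.32 to 11.99 in PH3, and how much atrium each piece held was not tested. Kcnj11, the pore of the cardiac ATP-sensitive potassium channel, read 9.23, 9.28, 9.36 and 9.43 in Air and 9.14, 9.17, 8.80 and 9.20 in PH3. The highest PH3 heart was just under the lowest Air heart, a difference of -0.25. Gja1, the gap junction protein connexin 43, differed by -0.23. Calcium handling and channel genes as a list had a median of -0.01, with 14 higher and 17 lower of 31.

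Transcripts of the respiratory chain showed no called difference. Of 18 measured genes for cytochrome c oxidase and its assembly of 22 listed, 6 had a higher and 12 a lower mean, with a median of -0.04 and 0 unadjusted p under 0.05. Abundant subunits were measured closely: Cox4i1 differed by -0.13 (standard error 0.0733), Cox5b by -0.005 and Cox6a2 by 0.07. Cox4i2, an alternative subunit that responds to oxygen, differed by -0.52 with a standard error of 0.280, and by -1.30 (adjusted p 0.0931) against the Air hearts of 1, 6 and 24 h. The same change of controls moved Cox4i1 to -0.25. For the remaining subunits of the chain and of ATP synthase the median was -0.03, with 9 of 31 higher. Antioxidant and NRF2 target genes split 13 higher and 15 lower with a median of -0.01, heat shock proteins 5 and 13 with a median of -0.04, and glycolysis and hypoxia genes 9 and 21 with a median of -0.03. Pfkfb3, which drives glycolysis, differed by 0.58, and Vegfa by -0.24.

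Cell cycle genes had the lowest median of the pathway lists, -0.20, with 16 of 20 lower. Ccnd1, cyclin D1, read 9.88, 9.73, 9.88 and 9.63 in Air and 8.90, 9.06, 10.10 and 8.77 in PH3. Rat368 was the highest of the 8 hearts and the other 3 PH3 hearts lay below the Air range, a difference of -0.57. Without the pair with high 3′ index the list's median was -0.38. Mki67 differed by -0.60 and Mcm5, of the replication helicase, by -0.41. Circadian clock genes had a median of -0.18, with 12 of 18 lower. PH3 Rat368 was the low heart, at a mean level of 6.86 against 7.07 to 7.18 in the other PH3 hearts, and without the pair the median was -0.07. Vessel regulators, the list that holds Dach1, had a lower mean in 25 of 34, with a median of -0.05. The mean level of that list was 8.05 in PH3 Rat368 and 7.86 in Air Rat370 against 7.25 to 7.58 in the other 6 hearts, and without that pair the median was -0.22. Esm1, made by growing endothelium, differed by -0.82 at 3 h and -1.31 at 1 h.

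Genes whose PH3 hearts all lay above the Air hearts numbered 246, or 1.83%, and those with all below 0.804%. Where nothing differs, groups of 4 lie apart in one direction or the other with a probability of 0.0286. The shares of both directions together do not exceed that probability. Lack of overlap is thus not rare over 13438 genes and by itself marks no difference. Among the 246 the lowest p-values after Fkbp5 belonged to Flt3, Cyb561, Pdzk1ip1, Gal, Bpifb4, Pdk4, Tff1, Odf4 and Tacr3. Galanin (Gal), a neuropeptide, read 5.33, 5.01, 6.36 and 5.23 in Air and 6.59, 7.22, 7.42 and 7.37 in PH3. Air Rat370 was high for its group and still below every PH3 heart. The difference was 1.67 with a standard error of 0.392, 3.18 times, with an adjusted p of 0.495, and it had been 2.44 at 1 h (adjusted p 0.00117). Gal was called in 3 alternatives: against the Air hearts of 1, 6 and 24 h (2.03, adjusted p 0.0123), against those of all times (1.94, adjusted p 0.0297) and with array weights (1.79, adjusted p 0.0462). Cyb561, an electron carrier of secretory vesicle membranes, read 6.17, 5.74, 5.89 and 5.58 in Air and 7.56, 6.60, 6.90 and 6.47 in PH3. Both hearts high in adipocyte markers were the highest of their group. The difference was 1.04, 1.39 within that pair and 0.92 in the other 6, with an adjusted p of 0.303, or 0.0016 with the rat as a replicate block, and at 1 h it was 0.35. Flt3, a receptor of blood progenitor cells, differed by 0.93 from a dim Air level of 3.37, and Pdzk1ip1, Bpifb4, Tff1, Odf4 and Tacr3 were also dim, between 2.93 and 4.65 on the log2 scale in the 8 hearts.

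Genes with every PH3 heart below every Air heart numbered 108, or 0.804%. After Dach1 the lowest p-values were those of Zfyve16, Daam1, Trem2, Zfp462, Ints13, Wdfy4, Igsf3, Atp6v0a2 and Smtn. Daam1, a formin that builds actin filaments, read 8.85, 8.80, 8.94 and 8.68 in Air and 8.40, 8.23, 8.66 and 8.29 in PH3. Rat368 came close to the lowest Air heart, and the difference was -0.42 with a standard error of 0.108 (adjusted p 0.587), where 1 h had given 0.27. Zfyve16, an endosomal protein, differed by -0.51 and Smtn, a marker of contractile smooth muscle, by -0.37. Smooth muscle and pericyte markers as a list went the other way, with a higher mean in 7 of 10 and a median of 0.12. Against the Air hearts of 1, 6 and 24 h Smtn was called at -0.62 (adjusted p 0.011), while Zfp462, Ints13 and Igsf3 came to -0.10, -0.09 and -0.14. Trem2, a macrophage receptor, differed by -0.66 although macrophage markers as a list did not have a lower median.

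The genes that had answered at 1 h were followed at 3 h, with no array shared between the times. At 1 h 154 of 13438 genes were called, 1.15%, of which 77 were higher and 77 lower. The 77 higher genes had a median of 1.27 at 1 h and 0.22 at 3 h. Of these 60 (77.9%) kept a higher mean, where 55.4% of all genes had one. An unadjusted p under 0.05 went with 11 of them, against 2.81% of all genes. Of the 77, 8 kept 50% or more of the 1 h difference. The 77 lower genes had medians of -0.85 and -0.08, and 49 (63.6%) kept a lower mean, where 5994 of all 13438 genes had one. Of the 49, 7 had an unadjusted p under 0.05, against 1.61% of all genes, and 2 had 50% or more of the difference. Across the 154 genes the Pearson correlation of the 1 h and 3 h differences was 0.597, a description over genes that are not independent. Choosing genes by their 1 h values in part fixes smaller differences at 3 h. It also leaves out genes with small 1 h differences, which bears on the correlation. Tinagl1, an extracellular matrix protein, differed by 1.56 at 1 h and 0.85 at 3 h, beside Fkbp5, Gal, Mt2A and Nr4a3 among the genes with the lowest 3 h p-values of these.

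**Figure D3:**
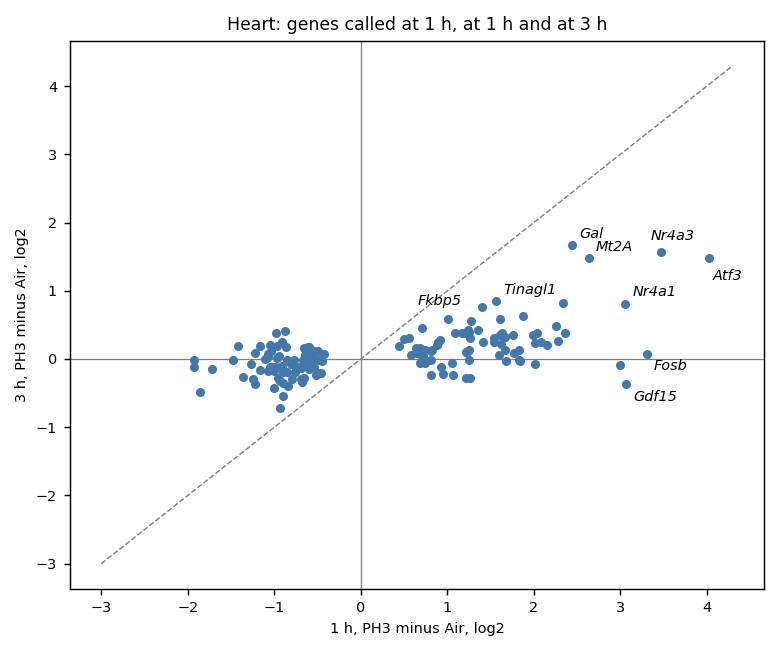
PH3 minus Air in heart at 1 h (horizontal) and 3 h (vertical), both log2, for the 154 genes called at 1 h; each point is a gene and the dashed line marks equal differences. No gene had a larger difference in the same direction at 3 h, which the choice by 1 h values in part fixes. Of the 77 higher genes 60 and of the 77 lower genes 49 kept their sign, so the other points lie past 0.

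Tests of the change in difference between times called little. The 3 h minus 1 h test called 0 of 31042 probe sets, 0%, with 1966 at an unadjusted p under 0.05 and a lowest adjusted p of 0.162, so the return of single genes such as Atf3 (-2.55, standard error 0.771, adjusted p 0.475) was not called. With the rat as a replicate block 145 were called, 43 with a larger and 102 with a smaller difference at 3 h. The 3 h minus 6 h test called 0, again 0%, with 1019 at an unadjusted p under 0.05 and a lowest adjusted p of 0.362. Both unadjusted counts stand beside the share of 0.05 that such a cut passes where nothing differs. The 3 h minus 24 h test called 1, or 0.00322%, which was Dach1 at -1.62 with a standard error of 0.262 (limma adjusted p 0.0363). The contrast uses the same 3 h Air hearts, which were high for Dach1 among the heart groups, so it is no separate support. That call was lost without PH3 Rat359 or Rat361, Air Rat365, Rat370 or Rat400, or the pair high in adipocyte markers, each with 0 calls, and 2 were called without PH3 Rat368. The brightest Fkbp5 probe set differed by 0.76 at 3 h, 0.37 at 6 h and -0.41 at 24 h, with a 3 h minus 24 h difference of 1.17 (adjusted p 0.0568). Mt2A gave 2.63, 1.47, 1.14 and -0.58 at 1, 3, 6 and 24 h, and Pdk4 0.83, 1.19, 0.14 and 0.49.

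**Figure D4:**
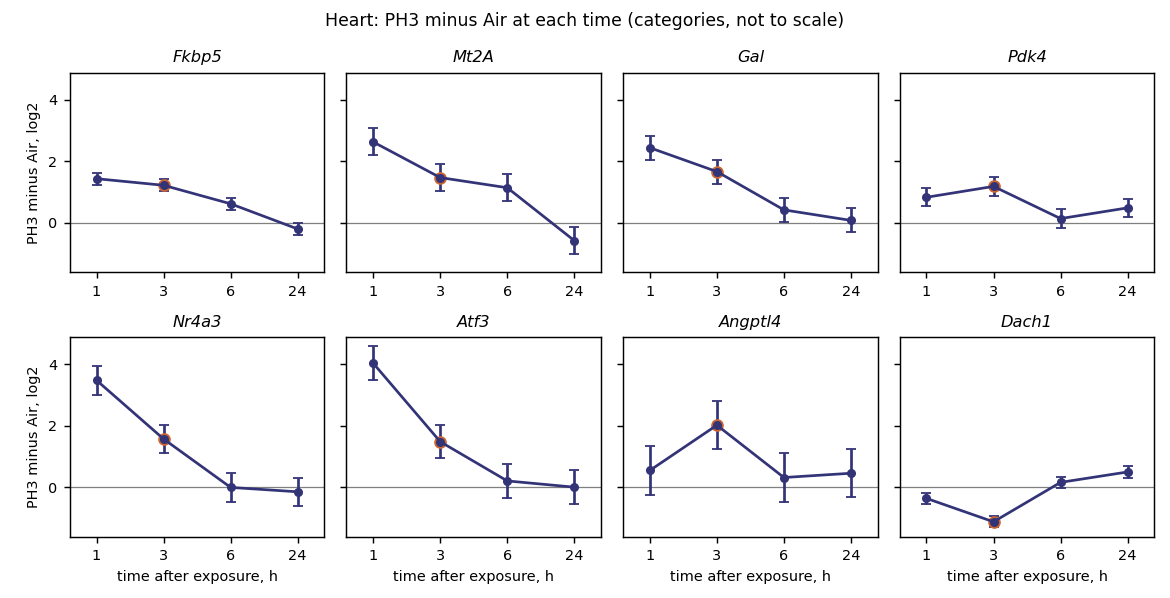
PH3 minus Air in heart (log2, vertical) at 1, 3, 6 and 24 h (evenly spaced categories) for 8 genes; bars are standard errors from 1 limma fit of 32 heart arrays, 4 in each group, and the orange ring marks 3 h. Atf3 and Nr4a3 stood at 4.03 and 3.47 at 1 h and 1.48 and 1.56 at 3 h. Dach1 was lowest at 3 h (-1.13), where its Air hearts were high.

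Other tissues were read at 3 h to place the heart values. Lungs came from the same 8 rats, while kidneys came from 3 of the 4 rats of each group and 1 other, and the PH3 brain stems from 3 of the 4 and 1 other. The called Fkbp5 probe set also rose in lung by 1.15 (adjusted p 0.0261, where 9.89% of lung probe sets were called), in kidney by 1.6 (adjusted p 2.88e-05, 0.303% called) and in brain stem by 0.78 (adjusted p 0.0346, 0.0161% called). Within rats the heart difference was 0.08 above that of lung (adjusted p 0.970). Over the 3 rats a group with both organs it differed from that of kidney by -0.11 (adjusted p 0.934). Gal rose in lung by 1.54 and Mt2A by 1.15. Dach1 differed by -0.52 in lung and -0.14 in kidney, and its heart minus kidney difference was -1.07 (adjusted p 0.0732). The test of heart minus lung, over 32 rats with 4 of each group at 3 h, called 7 of 31042 probe sets, 0.0226%. Named among them are Il1r2, a decoy receptor for interleukin 1, Sh2d1a, an adaptor of T and NK cells, the adhesion protein Mcam, the vesicle protein Vamp4 and the RNA-binding protein Slirp, each lower in this contrast. Il1r2 rose in lung by 1.78 and read 3.16 to 3.58 in the Air hearts and 3.60 to 4.09 in the PH3 hearts. Sh2d1a rose in lung by 1.54 and differed by -0.18 in heart. The lungs differed in RNA quality between groups at 3 h, with a 3′ index of 0.445 ± 0.078 in Air and 0.178 ± 0.065 in PH3 (SD, n = 4 each), where the hearts read 0.423 ± 0.297 and 0.440 ± 0.326, and its part in these calls was not tested. The count moved to 103 without Air Rat370, 26 without PH3 Rat399, 2 without Air Rat355, 3 without PH3 Rat359 and 4 without Air Rat365. Heart minus kidney, over 30 rats with 3 of each group at 3 h and without Rat368 and Rat370, called 1 probe set, 0.00322%. This was Scarb1, the receptor for high-density lipoprotein, which rose in kidney by 1.58 and read 6.39, 5.83, 6.30 and 6.04 in the Air hearts and 6.23, 5.74, 6.88 and 5.84 in the PH3 hearts. It was lost without Air Rat355, Rat365 or Rat400 or PH3 Rat361, each with 0 calls, and 6 were called without PH3 Rat399.

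**Figure D5:**
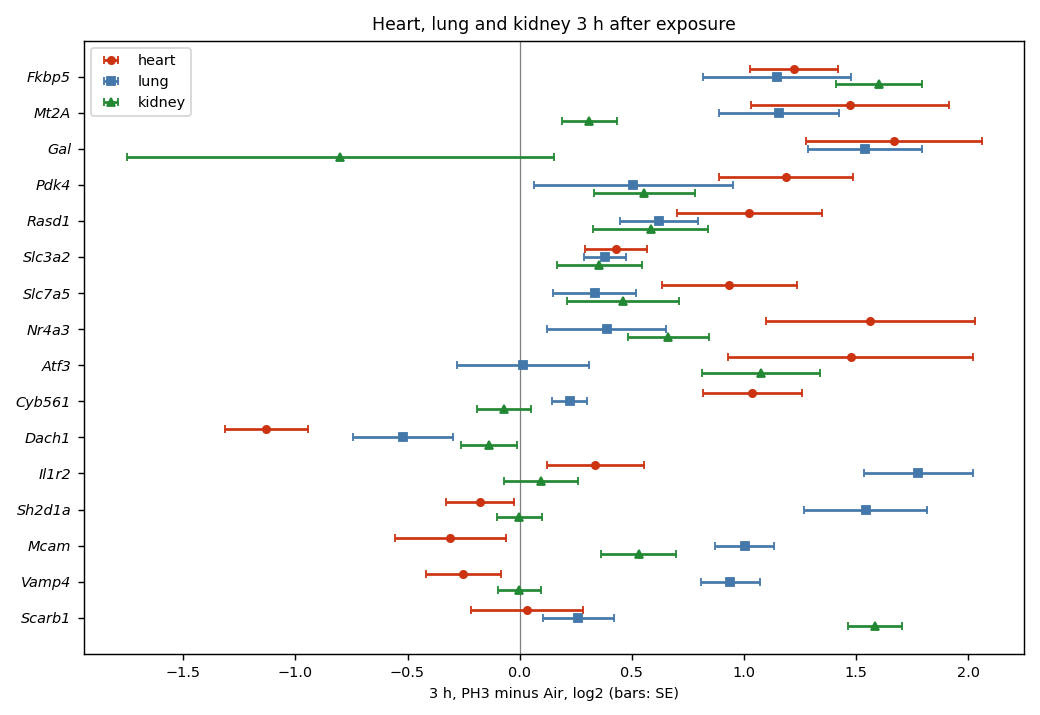
PH3 minus Air at 3 h (log2, horizontal) in heart, lung and kidney for 16 genes, with standard errors from 1 limma fit for each tissue. Fkbp5 lies between 1.15 and 1.6 in the 3 tissues, Il1r2 (1.78) and Sh2d1a (1.54) are high in lung, and Scarb1 is high in kidney (1.58).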

How the data were processed

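Rat tissues were hybridised to Affymetrix 3′ arrays. RMA and Partek are the tools that the submitters' processing notes list, without versions. The authors deposited log2 intensity per probe set. RMA also equalises arrays, so a shift common to most genes would not show. The table held 31139 probe sets with values from 2.038 to 14.18, of which 97 control probe sets were left out and no dim ones. The platform annotation named 1 gene for 19063 probe sets and several for 572, and left 11407 unnamed here.

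PH3 was compared with Air in R 4.3.3 with limma 3.58.1 (lmFit, eBayes, two-sided) in 1 fit of 32 heart arrays in 8 groups, which share an estimate of spread. Differences of differences were contrasts of that fit. Rat numbers pair tissues of 1 animal, not PH3 with Air, so heart minus lung and heart minus kidney were fitted on differences within rats, and the rat as a replicate block in all tissues was an alternative (consensus correlation 0.0168). Arrays give no counts, and 4 arrays a group limit the precision. Each heart array is a separate rat, so p-values of the heart fit measure the spread between rats. Those of the replicate block fit pool the spread of all tissues.

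The members and the 37 gene lists (21 pathway, 16 marker) were chosen with earlier results of these data known. Genes were named where called, as the 10 of lowest p in each direction whose groups do not overlap, as up to 4 members of lowest p of a list, and where a difference test called them. Other genes were named after their values were seen. The heart test of PH3 against Air at 3 h was tried on simulated data with independent normal noise. The other fits were not tried in this way.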

Additional observations from a re-analysis of the deposited data

Results flagged for a closer look

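A single array stood apart from its group in 16 of the 202 groups of 4 values examined for the named genes, where chance gives about 1 in 20. For the brightest Fkbp5 probe set PH3 Rat399 read 7.93 and the other PH3 hearts 7.70 to 7.74. For Pdk4 PH3 Rat361 read 10.82 and the others 11.11 to 11.12. PH3 Rat368 read 8.80 for Kcnj11 (others 9.14 to 9.20), 4.62 for the kinase Plk3 (3.70 to 3.84) and 10.46 for nucleolin, Ncl (10.08 to 10.14). Air Rat370, the other heart with a high 3′ index, read 8.91 for the chaperone Dnajb9 (9.42 to 9.48), 9.96 for galectin 3, Lgals3 (9.08 to 9.19), 11.40 for the complex II subunit Sdhd (11.94 to 12.04), 8.66 for mitochondrial thioredoxin, Txn2 (9.24 to 9.29), and 7.64 for the clock gene Per3 (5.48 to 5.83). So 8 of the 16 lay in that pair of arrays. PH3 Rat361 also read 12.92 for cardiac troponin I, Tnni3 (12.66 to 12.71), 4.73 for Srxn1 (6.07 to 6.32) and 8.41 for Bhlhe40 (7.38 to 7.53). PH3 Rat399 read 5.64 for Rrp12 (6.38 to 6.46), PH3 Rat359 12.06 for Cox8a (11.80 to 11.82) and Air Rat365 5.48 for Nr4a1 (6.10 to 6.22). Their causes were not tested.

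The effect of phosphine at 3 h differed between heart and lung within rats by -1.31 for Mcam, -0.59 for Slirp, -1.72 for Sh2d1a, -1.19 for Vamp4 and -1.44 for Il1r2. It differed by 1.78 and 1.52 for probe sets with no gene name here. For Scarb1 the heart minus kidney difference was -1.75. Between times, the Dach1 difference at 3 h lay 1.62 below that at 24 h (-1.62), with the 3 h Air hearts high for this gene.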

How the results depend on the processing

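For PH3 against Air at 3 h, 2 probe sets were called in the fit as reported. The count was also 2 with array medians subtracted, with the brighter 50% of probe sets, with a trended and robust variance and with the 3′ index added as a term. It was 1 with 1 probe set per gene, 9 with array weights, 0 with the 3 h groups fitted alone, 71 (24 higher, 47 lower) against the Air hearts of 1, 6 and 24 h, 1 against those of all times, 25 with the rat as a replicate block and 0 to 2 with 1 heart left out. Alternatives chosen after seeing the data gave 0 without the pair high in adipocyte markers and 2 without the pair with high 3′ index. For 3 h minus 1 h the counts were 0, 1 with the 3′ index and 145 with the rat as a replicate block. For 3 h minus 6 h they were 0 in the fits run. For 3 h minus 24 h the count of 1 became 2 with medians subtracted or the brighter probe sets, 3 with 1 probe set per gene, 5 with weights, 0 with the times alone, 4 with the 3′ index, 0 to 2 with 1 heart left out, 3 without the pair with high 3′ index and 0 without the pair high in adipocyte markers. For heart minus lung 7 became 20 with weights, 2 to 103 with 1 heart left out, 2 without the pair high in adipocyte markers and 6 with no replicate block. For heart minus kidney 1 became 2 with the brighter probe sets, 8 with 1 probe set per gene, 7 with weights, 0 to 6 with 1 heart left out, 0 without the pair high in adipocyte markers and 3 with no replicate block. The cause of these moves was not tested.

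The called Fkbp5 probe set stayed between 0.85 and 1.42 across 19 alternatives, and Dach1 between -1.22 and -0.27 across 20. Of the 100 genes named by rule, those that changed sign were these, and none of them was called as reported. Against the Air hearts of 1, 6 and 24 h Myh7 turned to 0.13, Nppa to -0.018, Sel1l to -0.043, Hspa5 to 0.016, Hspa8 to 0.019, Slc39a14 to -0.028 and Plk3 to 0.016. Against those hearts and against Air of all times Lbp gave -0.23 and -0.0043, Slc30a2 -0.10 and -0.023, Txn2 -0.14 and -0.051, Bbc3 0.12 and 0.057, Per3 0.46 and 0.17, and Ncl 0.13 and 0.078. With 1 heart left out Sdhd ran from -0.29 to 0.029, Ndufv2 from -0.15 to 0.0027 and Sesn2 from -0.0072 to 0.49. Scarb1 in heart, 0.03 as reported and not called, was -0.03 with weights, -0.20 to 0.17 with 1 heart left out, -0.15 without the pair with high 3′ index, -0.12 against the Air hearts of 1, 6 and 24 h and -0.079 against those of all times.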
